A study of Mus musculus with 6 samples.

Results

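AP-1 is a family of paired transcription factors, and the 10 genes described here encode subunits of it: the Fos proteins Fos, Fosb, Fosl1 and Fosl2, the Jun proteins Jun, Junb and Jund, the Batf proteins Batf and Batf3, and the small Maf protein Maff. They were taken by symbol from a table of 25751 mouse genes, in which each of the 10 had 1 row, and all 10 had enough counts to be tested. The table came from poly(A)-selected RNA-seq of primary wild-type myeloid cells of mice, labelled 24 h. Controls gave 3 libraries, and cells treated with trimethylamine N-oxide (TMAO), a small metabolite that the liver makes from a product of gut bacteria, gave the other 3. The deposited descriptions call the treated samples T-BMDM and the others Control, and the labels do not explain the name. If the cells of the groups were obtained in different ways, that cannot be told apart from the treatment. The same holds for the sequencer, since instruments of different makers are named without a link to libraries. The sources used here give neither the TMAO dose nor the strain, age and sex of the animals. They do not say that replicate libraries are separate cultures or animals either, and the p-values therefore reflect the spread among these 6 libraries, possibly a technical one.

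AP-1 proteins share a basic region that touches DNA and a leucine zipper through which they pair. Fos proteins cannot pair with themselves and bind DNA as partners of Jun proteins, whereas Jun proteins also pair with each other. Batf proteins lack the transactivation domain of Fos and pair with Jun proteins, often beside the interferon regulatory factors Irf4 or Irf8, and small Maf proteins also lack such a domain and can act as repressors or as partners of NF-E2-related factors. In macrophages and other myeloid cells several of these genes are known as immediate early genes, switched on within minutes of a stimulus through mitogen-activated protein (MAP) kinases, with short-lived transcripts.

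The family can be read in the coding bases of the basic region. The stretch of 27 bases is shown for 1 member of each branch, to show what the 10 genes have in common. Each was read 5′ to 3′ from the longest open reading frame of the GENCODE M21 transcripts. Capitals mark the first, the middle and the last codon of the stretch, whose residues were held fixed when it was sought in all 10 members. The search also restricted the residues of the fourth and the eighth codon, shown in lower case. Likeness at these codons was therefore partly set by the search.
Fos: AATaagatggctGCAgccaagtgcCGG
Jun: AACcgcattgccGCCtccaagtgcCGG
Batf: AATcgcatcgctGCCcagaagagcCGA
Maff: AACcgcggctacGCGgccagctgcCGC
Against Jun, 24 of the 27 bases were the same in Jund and 21 in Junb, and 19 in Fos and in Batf. There were 18 in Fosl2 and in Batf3, 17 in Fosb and in Maff, and 16 in Fosl1.

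Promoters of the members were examined for sites that AP-1 and related factors are known to bind, in RefSeq windows of GRCm38.p6 that run from 250 bases before a start site to 50 after it. Such windows were found for 9 of the 10 members, all but Fosl1, with 11 windows in all because Maff had 3. The motifs were chosen after the windows had been read, and both strands were searched. The octamer TGACNTCA, the kind of site bound by Jun paired with ATF or CREB proteins, occurred in 8.83% of 32851 windows, and among the members in that of Jun and in 2 windows of Maff. Its shorter core TGACG, which can lie inside the octamer, occurred in 20.8% of all windows and in those of Fos, Fosb, Junb, Batf and Maff. For MEF2 only the exact string of 10 bases read in the window of Jun, from base -33 to base -24, was searched. That string occurred in 0.11% of windows, and among the members only in that of Jun. Other forms of a MEF2 site were not sought, so 0.11% is not the share of windows with any such site. The heptamer TGANTCA and the serum response factor site called the CArG box occurred in 7.81% and 1.63% of windows and in none of the 11 member windows, which says only that these letters are not in these stretches. Below are 60 bases of the gene's strand around the octamer in Jun (minus strand, chr4:95052234-95052293), the octamer in the second and in the last window of Maff (plus strand, chr15:79347460-79347519 and chr15:79348331-79348390), and the core nearest to the start in Fos (plus strand, chr12:85473796-85473855) and Fosb (minus strand, chr7:19310074-19310133). Capitals mark the match.
Jun: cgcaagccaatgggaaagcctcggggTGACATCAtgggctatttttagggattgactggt
Maff: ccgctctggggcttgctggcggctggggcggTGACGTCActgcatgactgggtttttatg
Maff: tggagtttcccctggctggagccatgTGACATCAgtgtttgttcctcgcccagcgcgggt
Fos: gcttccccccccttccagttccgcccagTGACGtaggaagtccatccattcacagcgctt
Fosb: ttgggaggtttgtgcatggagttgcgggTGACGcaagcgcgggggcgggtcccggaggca
In Jun and in the last Maff window the octamer spans the same place, from base -45 to base -38 before the start, and the Fos and Fosb cores begin at -66 and -60. A match is a description of the letters and not of binding.

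The libraries held 37759007 to 41735109 counts. Levels are given as CPM, counts scaled to the size of the library with factors from the trimmed mean of M-values (TMM), and errors are the SD over 3 libraries. A gene is called where its adjusted p is under 0.05 in edgeR's quasi-likelihood F test, adjusted by Benjamini-Hochberg over all 14626 genes tested. The comparison was broad: 65.7% of the genes tested were called, 33.0% higher with TMAO and 32.7% lower, at a median log2 fold change of 0.005. Markers of other cell types differed between the same groups: all 12 listed neutrophil and precursor markers rose, from summed levels of 42.4 to 55.4 CPM in controls to 3710 to 4967 CPM with TMAO, with S100a9 at 17.4 ± 4.05 and 1851 ± 304 CPM and Ngp at 7.5 ± 1.73 and 1164 ± 80.1 CPM. All 8 monocyte markers rose, from summed levels of 184 to 232 CPM to 1046 to 1103 CPM. The 10 macrophage markers summed to 43480 to 48190 and 38820 to 47620 CPM, carried mostly by the lysozyme gene Lyz2 (log2 fold change 0.01). Of these 10, C1qa and C1qb were called higher and 5 lower, among them the defining markers Adgre1 (F4/80; 1705 ± 56.5 and 526 ± 67.3 CPM) and Mertk (162 ± 15.8 and 16.3 ± 3.67 CPM), and none was at 0. Lists of B cell markers (2.44 to 3.58 against 11.7 to 15.8 CPM; Pax5 at 0 in controls), T and NK cell markers (0.206 to 0.509 against 1.87 to 2.45 CPM; Cd3g, Nkg7 and Ncr1 at 0 in controls and Cd3e at 0 with TMAO) and eosinophil, mast cell and basophil markers (0.581 to 0.967 against 8.40 to 10.2 CPM; Mcpt8 at 0 in controls) summed to low levels. Stromal and endothelial markers summed to 3.682 to 4.398 and 5.997 to 7.262 CPM. Their part in the AP-1 results was not tested, and in bulk RNA fewer cells of a type and less RNA per cell cannot be told apart.

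Of the 10 AP-1 genes, 9 were called higher with TMAO and none lower, against 33.0% called higher among all genes tested. At an unadjusted p under 0.05 none was lower either, nor was any called lower by DESeq2 or limma-voom. The exception was Batf3. In the same 9 genes every TMAO library was above every control library, a pattern seen with TMAO higher in 35.6% of genes tested, in 35.4% with TMAO lower and in 71.0% in either direction. Of the members 8 were called higher by at least 2-fold, against 15.7% of genes tested (14.7% were lower by as much), and 1, Fosb, by at least 8-fold, against 2.83%. The changes were unequal, with log2 fold changes from 0.96 in Fos to 8.25 in Fosb. The members thus started and ended at very different levels, from a few counts for Fosb in controls to 551 CPM for Junb with TMAO.

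**Figure D1:**
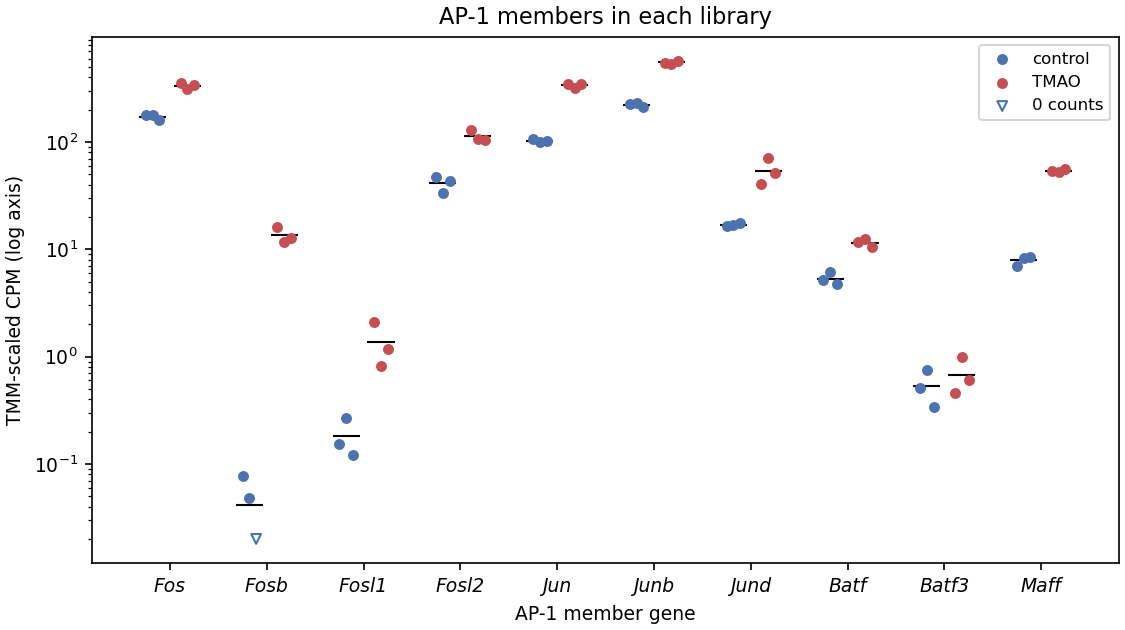
TMM-scaled CPM (log axis) of the 10 AP-1 members, with 1 point per library, blue for control and red for TMAO, and bars at the group means; the open triangle marks a control library with 0 counts of Fosb, drawn at the foot of the axis. Apart from Batf3 the red and blue points of a gene do not overlap, and Junb reaches 551 CPM with TMAO while Fosb stays at 13.5.

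Among the Fos genes, the founder Fos was by far the most abundant and changed least. Fos stood at 177, 178 and 162 CPM in the control libraries and at 355, 311 and 343 CPM with TMAO. The groups were well apart and each was tight. The rise was 1.95-fold (log2 fold change 0.96, SE 0.09, edgeR adjusted p = 6.03e-06, n = 3 per group). Fosl2, also called Fra-2, a Fos protein without the strong transactivation domain of Fos, had 47.3, 33.5 and 43.3 CPM in controls and 130, 106 and 105 CPM with TMAO. The second control library was the lowest and the first TMAO library the highest, without overlap. Fosl2 rose 2.75-fold (log2 fold change 1.46, SE 0.14, edgeR adjusted p = 8.1e-06, n = 3 per group).

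Fosb and Fosl1 were the scarce Fos genes, and in both the control level rests on few reads. Fosb, which makes FosB and a shorter splice form that gene counts cannot separate, had 3, 2 and 0 counts in the control libraries and 644, 424 and 485 with TMAO. In CPM it went from 0.0418 ± 0.039 to 13.5 ± 2.41 (SD, n = 3). The ratio of summed counts was 330 with an exact 95% binomial interval of 141 to 1018, which covers counting error only. The fitted log2 fold change of 8.25 (SE 0.37, edgeR adjusted p = 4.94e-08) depends on such low counts: it was 8.94 without control replicate 1 and 7.68 without control replicate 3. Fosb was thus a gene at the edge of detection in controls and a modest one with TMAO. Fosl1, also called Fra-1, had 6, 11 and 5 counts in controls and 83, 30 and 45 with TMAO, or 0.18 ± 0.0758 and 1.36 ± 0.656 CPM. It rose 7.45-fold (log2 fold change 2.90, SE 0.49, edgeR adjusted p = 0.000402, n = 3 per group), and the first TMAO library was the highest. In the GENCODE annotation 1163 of the 2033 exonic bases of Fosl1 overlap Ccdc85b on the opposite strand, and without a stated strand setting reads of the overlap cannot be told apart. Ccdc85b was at 11.8 ± 1.78 and 15.6 ± 1.75 CPM (log2 fold change 0.41, edgeR adjusted p = 0.0272).

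All 3 Jun genes rose, and the 2 abundant ones did so with little spread. Jun, the partner that gives the classical heterodimer with Fos, stood at 107, 101 and 101 CPM in controls and at 348, 322 and 349 CPM with TMAO. The lowest TMAO library lay far above the highest control. Jun rose 3.30-fold (log2 fold change 1.72, SE 0.08, edgeR adjusted p = 8.01e-08, n = 3 per group). Junb, a weaker activator than Jun that can oppose it at some sites, had 227, 229 and 213 CPM in controls and 542, 538 and 573 CPM with TMAO. It was the most abundant member in all 6 libraries. It rose 2.47-fold (log2 fold change 1.31, SE 0.08, edgeR adjusted p = 4.57e-07, n = 3 per group). Overlaps on the opposite strand were short in both genes, 232 bases with Junos in Jun and 173 bases with Prdx2 in Junb. Prdx2 was called higher, at 97.2 ± 11.9 and 133 ± 23.0 CPM (log2 fold change 0.45, edgeR adjusted p = 0.0134). Junos was at 4.45 ± 0.852 and 4.96 ± 0.769 CPM and was not called (edgeR adjusted p = 0.475).

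Jund, the Jun gene usually described as constitutively expressed, differed in its spread. It had 16.4, 16.8 and 17.4 CPM in the 3 control libraries, which were close together, and 40.9, 70.3 and 51.2 CPM with TMAO. All TMAO libraries were above the controls, but the second was far above the first. Jund rose 3.20-fold (log2 fold change 1.68, SE 0.17, edgeR adjusted p = 1.37e-05, n = 3 per group). In the annotation 877 of its 1668 exonic bases overlap the antisense gene Gm11175, for which the deposited counts hold no row. As for Fosl1, reads of the overlap cannot be told apart without a stated strand setting.

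The 2 Batf members behaved differently in the test. Batf, a partner of Jun proteins in lymphocytes and dendritic cells, had 5.20, 6.11 and 4.72 CPM in controls and 11.6, 12.5 and 10.5 CPM with TMAO. The groups did not overlap, and Batf rose 2.16-fold (log2 fold change 1.11, SE 0.14, edgeR adjusted p = 6.92e-05, n = 3 per group). Batf3, needed for the dendritic cells that cross-present antigen, had 20, 31 and 14 counts in controls and 18, 36 and 23 with TMAO, or 0.534 ± 0.206 and 0.681 ± 0.277 CPM. The groups overlapped, and Batf3 was not called (log2 fold change 0.34, SE 0.43, edgeR adjusted p = 0.506). Its ratio of summed counts was 1.26, with an exact 95% binomial interval of 0.893 to 1.78 that covers counting error only. The log2 fold change of Batf3 was -0.02 without TMAO replicate 2 and -0.03 after the trend across genes on length was removed. Batf2, a further Batf gene that is not among the members, was at 5.63 ± 1.04 CPM in controls and 4.28 ± 0.613 CPM with TMAO. It was not called (log2 fold change -0.39, edgeR adjusted p = 0.084) and was named after its value was seen.

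Both interferon regulatory factors that join Batf at composite sites were called higher. Irf4 had 1.08, 1.23 and 1.04 CPM in controls and 9.76, 6.08 and 7.38 CPM with TMAO. The log2 fold change of Irf4 was 2.79 (SE 0.22, edgeR adjusted p = 2.03e-06, n = 3 per group). Irf8, a factor of monocyte and dendritic cell development, was far more abundant at 150 ± 1.14 and 199 ± 5.71 CPM and rose 1.33-fold. Among the 7 dendritic cell markers 5 rose and 1 fell, where 33.0% and 32.7% of all genes tested did. Their summed level was 58.5 to 60.3 CPM in controls and 31.6 to 36.1 CPM with TMAO, with Siglech at 0 in controls. Xcr1, a marker of cross-presenting dendritic cells, was at 0.285 ± 0.167 and 1.502 ± 0.413 CPM, and Clec9a, another such marker, was at 0.240 ± 0.0447 and 0.357 ± 0.188 CPM and was not called; both were named after their values were seen. The most abundant of the 7, Itgax, fell from 56.9 ± 0.710 to 23.1 ± 2.50 CPM. The part of such cells in the values of Batf, Batf3 and Irf4 was not tested.

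Maff, a small Maf protein known to be induced by inflammatory and stress signals, had 6.92, 8.29 and 8.43 CPM in controls and 54.0, 52.8 and 55.9 CPM with TMAO. The TMAO libraries were close together and far from the controls. Maff rose 6.88-fold (log2 fold change 2.78, SE 0.11, edgeR adjusted p = 2.16e-08, n = 3 per group), the largest change among the members with over 100 counts in every library. The other small Maf genes rose too: Mafg went from 128 ± 2.71 to 223 ± 12.8 CPM (1.75-fold) and Mafk from 26.8 ± 2.05 to 42.2 ± 8.14 CPM (1.57-fold). Neither difference between Maff and these genes was tested, and both were named after their values were seen.

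**Figure D2:**
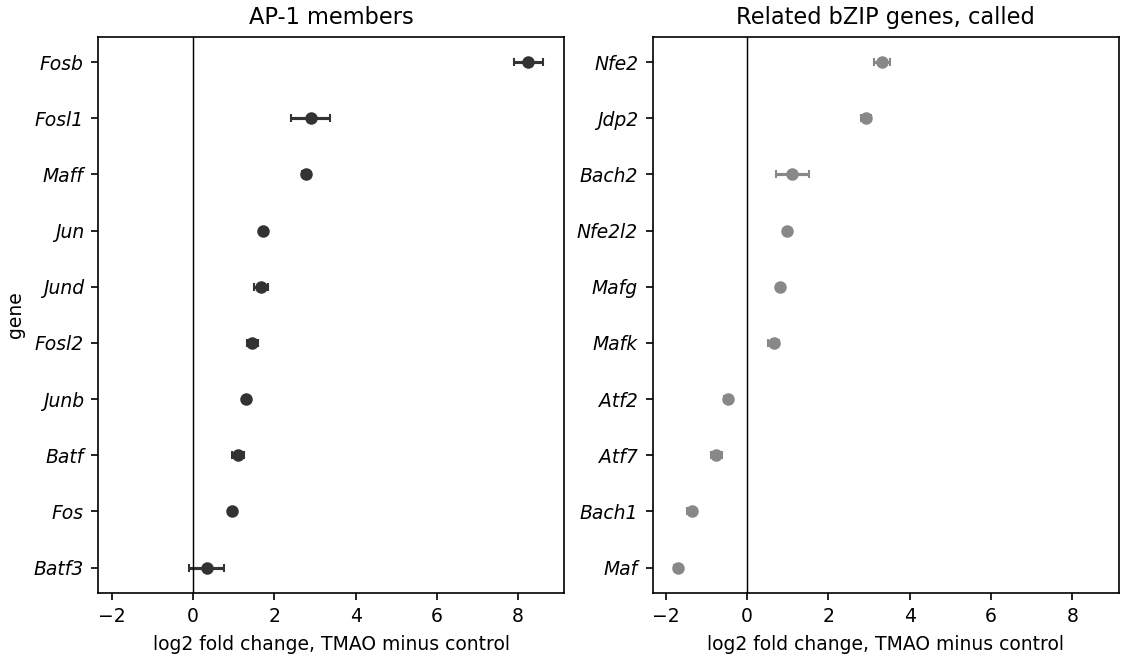
Log2 fold changes (TMAO minus control) with their SE as bars, from edgeR, for the 10 AP-1 members (left) and the 10 called genes of a list of related basic leucine zipper genes (right). The members lie between 0.34 in Batf3 and 8.25 in Fosb, all to the right of 0, whereas the related genes fall on both sides, from -1.71 in Maf to 3.33 in Nfe2.

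The composition of the family was compared per length, so that levels of different genes could be set side by side. The scale was CPM per kb of exonic length, which is 1 choice of length. Family shares with the longest transcript as length are given further below. The 10 members summed to 229, 229 and 215 CPM per kb in the control libraries and to 567, 553 and 578 CPM per kb with TMAO. Junb, Fos and Jun were the first 3 in both groups, in this order, and neighbours among them did not overlap. In controls the mean levels were 96.9 CPM per kb for Junb, 73.3 for Fos and 32.3 for Jun, followed by Jund at 10.1. Fosl2 at 4.27 and Batf at 3.80 CPM per kb overlapped and cannot be ordered, and Maff at 3.04, Batf3 at 0.335, Fosl1 at 0.0888 and Fosb at 0.0067 came last. With TMAO the same first 4 were at 240, 143, 107 and 32.5 CPM per kb. Maff then stood next at 20.9, ahead of Fosl2 at 11.8 and Batf at 8.20. Fosb followed at 2.17, and Fosl1 at 0.671 and Batf3 at 0.427 overlapped.

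Shares of that sum show which subunits gained weight. They are described without a test, since the members were chosen with earlier results of these data known. Junb made up 43.1, 43.6 and 43.1% of the summed per-length level in controls and 41.6, 42.3 and 43.1% with TMAO, so its share overlapped between groups. Fos went from 32.7 ± 0.594% to 25.3 ± 1.34% of the sum (SD, n = 3), although its own level rose. Jun took the opposite course, from 14.4 ± 0.512% to 18.8 ± 0.502%. Maff went from 1.36 ± 0.175% to 3.69 ± 0.0329% and Fosb from 0.0029 ± 0.0027% to 0.383 ± 0.0666%, and for Fos, Jun, Maff, Fosb and Fosl1 the shares of the groups did not overlap. The shares of Jund (4.52 ± 0.298 and 5.76 ± 1.70%), Fosl2 (1.91 ± 0.347 and 2.08 ± 0.260%), Batf (1.69 ± 0.181 and 1.45 ± 0.157%) and Batf3 (0.148 ± 0.0535 and 0.0758 ± 0.0324%) overlapped.

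**Figure D3:**
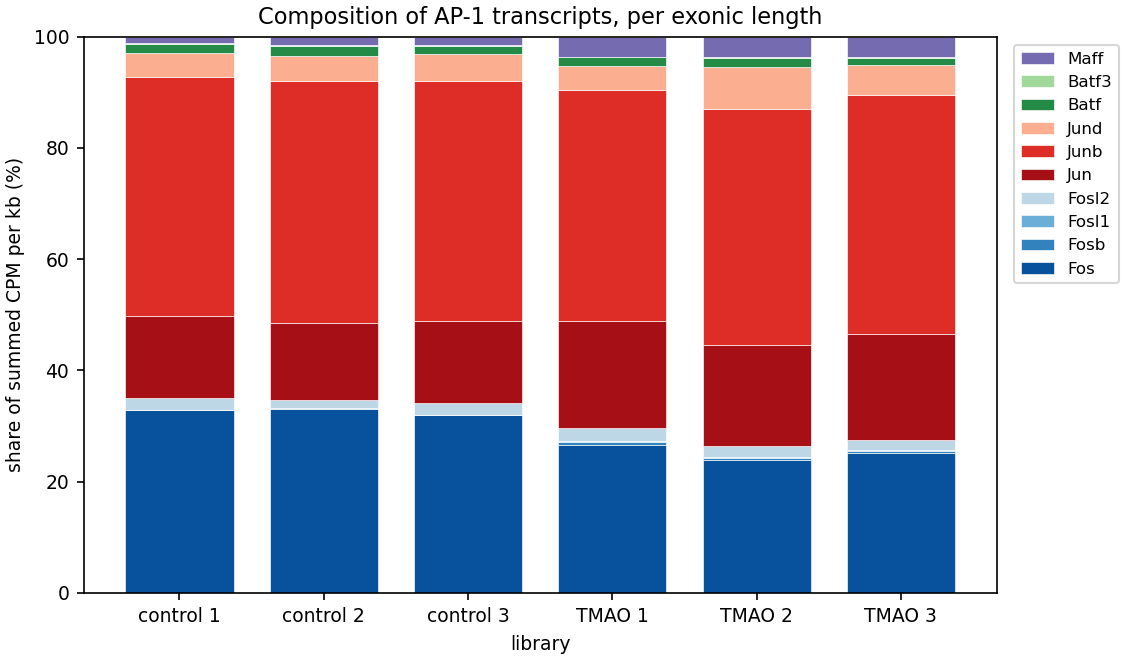
Stacked bars of each member's share (%) of the summed CPM per kb of exonic length, 1 bar per library, with the Fos genes in blues, the Jun genes in reds, the Batf genes in greens and Maff in purple. The blue part is 34.1 to 35.1% in the controls and 26.3 to 29.6% with TMAO, while Junb keeps between 41.6 and 43.6% in all 6 libraries.

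Taken by branch, the Fos genes held 34.6 ± 0.483% of the sum in controls and 27.8 ± 1.67% with TMAO, and the Jun genes 62.2 ± 0.481 and 66.9 ± 1.58%. The ratio of summed Fos to summed Jun levels per length was 0.566, 0.562 and 0.544 in the control libraries and 0.455, 0.386 and 0.409 with TMAO. In each library there was therefore more Jun than Fos transcript per length, and more so in each treated one. The Batf genes, without Batf2, which is not a member, held 1.84 ± 0.233 and 1.53 ± 0.182%, which overlapped. Within the Fos genes, the ratio of Fos to Fosl2 per length was 15.4, 21.9 and 15.4 in controls and 11.2, 12.1 and 13.4 with TMAO. Within the Jun genes the ratio of Jund to Jun was 0.314 ± 0.0183 and 0.307 ± 0.0993, with the TMAO values on both sides of the controls. On raw counts, without length, the share of Junb no longer overlapped between groups, at 39.1 ± 0.743 and 37.4 ± 1.06%. On that scale the long transcript of Fosl2 took 7.25 ± 1.24 and 7.70 ± 0.868%, above Maff (3.67 ± 0.0684%) with TMAO, and Jun (23.0 ± 0.369%) stood beside Fos (22.8 ± 0.916%) with TMAO.

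From TMAO replicate 1 to replicate 2 the Fos genes and Jun moved down and Jund, Batf and Batf3 moved up. As whole libraries, this pair differed most among pairs within a group. Its chi-square per degree of freedom was 65.6, against 30.5 for control replicates 2 and 3, the next pair. Whether the members moved beyond this library-wide difference was not tested. Counts in TMAO replicates 1 and 2 were low for Fosl1 (83 and 30) and Batf3 (18 and 36). Relative to the group mean on the log2 CPM scale, TMAO replicate 1 was at 0.08 for Fos, 0.28 for Fosb, 0.70 for Fosl1, 0.20 for Fosl2 and 0.04 for Jun. TMAO replicate 2 was at -0.11, -0.20, -0.59, -0.10 and -0.08 for the same genes, so all 5 lay above the mean in the first of these libraries and below it in the second. Jund went the other way, from -0.37 in replicate 1 to 0.41 in replicate 2, as did Batf3 from -0.47 to 0.57. Batf rose less far, from 0.01 to 0.12, and was above its mean in both. In TMAO replicate 3 the first 5 genes split, with Fos at 0.03 and Jun at 0.04 but Fosb at -0.08, Fosl1 at -0.11 and Fosl2 at -0.11. Jun and Junb stayed within 0.08 of their group means in all 6 libraries, and Maff within 0.05 in the TMAO libraries. Fos was lowest of its group in control replicate 3 (-0.09) and in TMAO replicate 2 (-0.11).

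**Figure D4:**
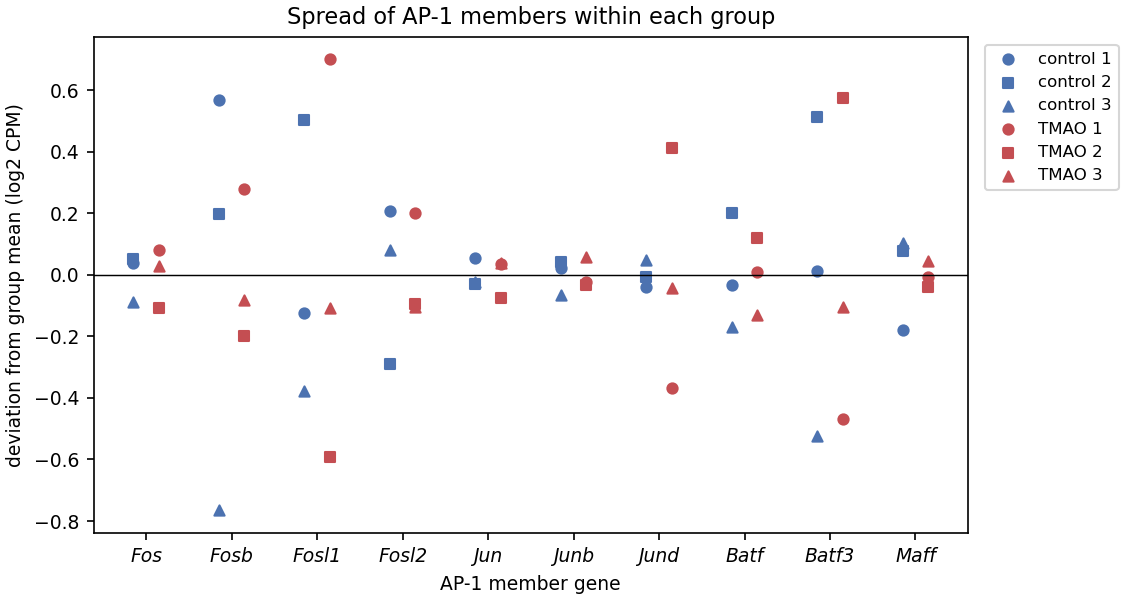
Deviation of each library from its group mean (log2 CPM) for the 10 members, blue for control and red for TMAO, with the replicate shown by the marker. Jun and Junb sit near 0 in every library, while Fosl1 reaches 0.70 and Fosb, with 0 to 3 control counts, -0.77.

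Related basic leucine zipper genes that can pair with AP-1 subunits were called in both directions, as were genes at large. Of 16 listed, 14 were tested, and 6 were called higher and 4 lower, beside 33.0% and 32.7% of all genes tested, at a median log2 fold change of 0.16 against 0.005 over all genes tested. Jdp2, which pairs with Jun and represses, had 7.31, 7.56 and 6.08 CPM in controls and 50.9, 50.5 and 58.3 CPM with TMAO. Its groups were far apart (edgeR adjusted p = 2.9e-08, log2 fold change 2.93, SE 0.12, n = 3 per group). Nfe2, a partner of small Maf proteins in megakaryocytes, rose from 2.07 ± 0.555 to 20.8 ± 2.34 CPM. Of the 6 erythroid and megakaryocyte markers the 3 tested rose too, and the list summed to 41.7 to 62.2 and 318 to 505 CPM. Nfe2l2, which encodes NRF2 and binds with small Maf proteins, rose 1.99-fold to 719 ± 32.5 CPM. The large Maf gene Maf, a macrophage factor, fell from 181 ± 8.37 to 55.3 ± 4.36 CPM (log2 fold change -1.71, edgeR adjusted p = 1.82e-07), and Bach1, a repressor that competes with NRF2 for small Maf partners, had a log2 fold change of -1.37 and was named after its value was seen. Among those not called, Atf3, a stress-induced partner of Jun, was at 263 ± 12.8 and 290.3 ± 13.9 CPM.

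Transcripts of the kinases that lead to AP-1 were called in shares near those of all genes. Of 20 listed MAP kinase pathway genes, 8 were called higher and 7 lower, beside 33.0% and 32.7% of all genes tested, with a median log2 fold change of 0.01. Map2k7, which activates the Jun kinases, rose from 31.8 ± 1.05 to 61.3 ± 1.60 CPM, and Map2k3, which activates p38, from 70.8 ± 4.07 to 129 ± 6.19 CPM. Map3k1, an upstream kinase of the Jun kinases, fell from 80.1 ± 4.43 to 33.8 ± 3.87 CPM, and Rps6ka3, a kinase downstream of ERK, from 140.3 ± 21.8 to 53.1 ± 9.06 CPM. The Jun kinase genes themselves moved apart, Mapk8 with a log2 fold change of 0.51 and Mapk9 of -0.58; they were named after their values were seen. Rps6ka1 and Map2k4 were not called, at log2 fold changes of -0.15 and 0.17, but Map2k4 was called higher without TMAO replicate 2 (edgeR adjusted p = 0.0458, range over the alternatives 0.0121 to 0.506) and without the length or GC trend. Rps6ka1 was called lower without the GC trend (log2 fold change -0.37, edgeR adjusted p = 0.00277, range over the alternatives 0.00277 to 0.414).

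Of 12 listed genes for factors and cofactors linked to the promoters of Fos and Jun, 4 were called higher and 7 lower. Of all genes tested, 33.0% and 32.7% were, and the median log2 fold change of the 12 was -0.29. With the length trend removed 6 of the 12 were called in place of 11. Crem, which makes activators and the repressor ICER, rose from 5.31 ± 0.428 to 37.7 ± 2.59 CPM, 7.09-fold (edgeR adjusted p = 2.9e-08). Mef2c, a factor for sites such as that in the Jun window above, fell from 57.8 ± 2.93 to 17.8 ± 0.817 CPM (log2 fold change -1.70, and -1.01 without the length trend), and Elk1, a ternary complex factor of the serum response element, from 23.9 ± 2.57 to 10.98 ± 0.884 CPM. Creb1 fell from 61.6 ± 7.31 to 35.7 ± 3.27 CPM, a call that ended once the length trend was taken out (edgeR adjusted p = 0.119, log2 fold change -0.16; range over the alternatives 2.94e-11 to 0.119). Elk4 was not called (32.3 ± 1.68 and 34.5 ± 6.64 CPM).

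Genes for turnover and co-regulation of AP-1 were called in 13 of 14 cases, 6 higher and 7 lower (median log2 fold change -0.07), whereas 65.7% of all genes tested were called. Zfp36, which encodes the decay factor tristetraprolin that can bind transcripts of immediate early genes, rose from 144 ± 11.1 to 305 ± 6.80 CPM, whereas its relative Zfp36l1 fell from 81.3 ± 2.67 to 42.4 ± 4.94 CPM. Dda1, a part of the ubiquitin ligase complex that degrades Jun, rose 2.19-fold, and Ncoa1, a coactivator, had a log2 fold change of -1.48. Cop1, the Jun-binding part of that ligase, was at 68.1 ± 5.18 and 74.2 ± 8.55 CPM and was not called, but was called higher once the trend on length (edgeR adjusted p = 2.71e-05, log2 fold change 0.88) or on GC content (0.58) was taken out; the adjusted p ranged from 2.71e-05 to 0.764 over the alternatives.

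Of 18 genes often described as AP-1 targets, 17 were tested, with 10 called higher and 5 lower, beside 33.0% and 32.7% of all genes tested. Their median log2 fold change was 2.19, against 0.005 over all genes. Tnf had 84.1, 87.3 and 87.2 CPM in controls and 586, 594 and 598 CPM with TMAO, and Il1b 17.2, 18.7 and 11.1 against 915, 901 and 893 CPM. Ptgs2, the inducible cyclooxygenase, and Hmox1, a haem-degrading enzyme, had log2 fold changes of 5.85 and 2.19. Targets that fell were named after their values were seen: Mmp12 (-1.38), Mmp9 (-0.81), Ccnd1 (-0.54), Spp1 (-0.44) and Vim (-0.41). Cd44 and Hbegf were not called, and Csf2, with 0 control and 21 TMAO counts, was too low to test. With the controls set to a floor of 3 counts in all, its ratio was 7.44, which leaves out the counting error of the TMAO counts. Several of these targets are also regulated by other factors, and the neutrophil and monocyte markers given above were higher in the same 3 libraries.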

How the data were processed

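The authors deposited raw counts, whole numbers without normalization, in 1 table with a row for each Ensembl gene and a column for each of 6 libraries. Per the submitters' processing notes, the genome build is GRCm39. For the aligner, the counter, the strand setting and the annotation, the sources used here give no name. Columns were matched to samples by their deposited descriptions, and groups come from the titles. GENCODE M21 (GRCm38) gave symbols to 25386 of 25751 genes and was used only for symbols, length, GC content, overlaps and coding bases.

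Counts were tested with edgeR 4.0.16 (R 4.3.3, limma 3.58.1): filterByExpr with a minimum count of 10, TMM, a quasi-likelihood F test without covariates and Benjamini-Hochberg adjustment over 14626 genes. The SE was taken as the log2 fold change over the square root of F. The steps were tested on simulated data. Pairs of libraries in a group differed beyond sampling noise (chi-square per degree of freedom 13.0 to 65.6).

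The members and gene lists were chosen with earlier results of these data known. Named are all members and, per pathway list, up to 4 called genes with the smallest p and up to 2 uncalled ones with the highest CPM; from the cell type lists the rule takes the 2 members with the highest CPM, of which only some are printed, and other genes are said to be named after their values were seen. Trbc1 and Fcer1a could not be placed. A few genes that the rule names are not reported here. Alternatives were DESeq2 1.42.0, limma-voom, other scalings and filters, trends on length and GC content removed, the 20 most abundant genes left out, the replicate number as a block, and each library left out.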

Additional observations from a re-analysis of the deposited data

How the results depend on the processing

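The 9 called members kept their direction and call in all 143 recomputed values, over 16 alternatives. With a filter of 1 CPM in 3 libraries Fosl1 and Batf3 were not tested, so 8 were called. Sizes did move. Without the length trend the log2 fold change was 0.72 in Fos, 0.73 in Batf and 1.91 in Fosl2. Without the GC trend it was 0.97 in Junb and 1.18 in Jund. Batf and Junb were then below 2-fold. Shares were not recomputed without these trends. Batf3 stayed uncalled in every alternative that tested it (adjusted p 0.275 to 0.975), with a log2 fold change of -0.03 to 0.67. The scalings moved the median of all genes by less than 0.1 on the log2 scale. The replicate numbers showed no sign of pairing the samples: same-numbered libraries correlated at r = 0.03, 0.13 and -0.07 in their deviations. Libraries of different numbers correlated at -0.19 to 0.16, and 3 libraries per group cannot show whether samples were paired by design. With the replicate block 4887 genes were called higher and 4836 lower, against 4830 and 4778 without it, and 9 members were called higher.

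Family shares moved with the length used. With the longest transcript as length the Fos genes held 33.4% in controls, the Jun genes 62.8% in controls, the Batf genes 2.30% in controls and 1.91% with TMAO, and Maff 4.16% with TMAO. Without length scaling the values in controls and with TMAO were 37.5 and 31.5% for Fos, 60.1 and 64.0% for Jun, and 1.03 and 0.829% for Batf. The lower Fos and higher Jun share with TMAO was seen on all 3 scales. Depth limits Fosb, Fosl1 and Batf3, with 5, 22 and 65 control counts.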

Other observations

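The genes with the profile closest to Fos, Jun and Batf were sought over the 6 libraries, as the smallest root mean square difference of mean-centred log2 CPM among all genes tested. Nearest to Fos were Ndrg1 (difference 0.022), Rnf19b (0.029) and Tmem120b (0.029); Ndrg1 went from 24.4 ± 1.015 to 47.9 ± 3.02 CPM. Nearest to Jun were Lbp (0.040), Shmt2 (0.046) and Srxn1 (0.053), the last a target of NRF2 that went from 189 ± 5.13 to 616 ± 30.6 CPM. Near to Batf were Eif4e (0.049) and Ran (0.069). Of all genes tested 65.7% were called.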
